A study of Homo sapiens with 16 samples.

Results

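The 10 genes described here encode the enzymes that make serine and pass its carbon to folate, namely PHGDH, PSAT1, PSPH, SHMT1, SHMT2, MTHFD1, MTHFD1L, MTHFD2, MTHFD2L and ALDH1L2. They were taken by symbol from the 62069 Ensembl gene identifiers of the count table, all 10 were found, and all 10 were among the 13526 genes that passed a filter on low counts. Bulk RNA-seq counts covered 16 libraries, 4 in each of 4 groups, all from the human lung fibroblast line IMR90 with ER:RAS. That fusion joins oncogenic RAS to a receptor domain that binds 4-hydroxytamoxifen (4OHT), so 4OHT turns RAS signalling on. The groups were shAHCY_4 cells with 4OHT, shAHCY_2 cells with 4OHT, EV cells with 4OHT (EV+4OHT, labelled senescent) and EV cells labelled non-senescent. All groups carry ER:RAS, all were at passage 15, and day 6 after 4OHT at 100 nM is given for each. The labels repeat that day and dose for the non-senescent EV libraries, whose group name holds no 4OHT. No group here has a hairpin without 4OHT, a hairpin against another gene, or 4OHT in cells that lack the fusion. The labels do not say whether replicates were cultured separately, and the p-values therefore measure a spread that may be technical.

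PHGDH, PSAT1 and PSPH act in that order to turn the glycolytic intermediate 3-phosphoglycerate into serine. SHMT1 in the cytosol and SHMT2 in mitochondria split serine into glycine and a carbon unit that is carried by tetrahydrofolate. In mitochondria MTHFD2 or MTHFD2L oxidises that unit, MTHFD1L releases it as formate, and ALDH1L2 can instead burn it to carbon dioxide while making NADPH, whereas MTHFD1 takes formate back into folate in the cytosol for purine, thymidylate and methionine synthesis. AHCY, the target of both hairpins, hydrolyses S-adenosylhomocysteine, the product that is left when S-adenosylmethionine gives up a methyl group, to homocysteine and adenosine. The homocysteine it makes is remethylated with a folate carbon, which is where the pathway of these 10 genes meets it.

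Library totals ran between 8236199 and 18235787 counts, and the lowest count of any of the 10 genes in any library was 91, for SHMT1 in EV+4OHT replicate 56. AHCY averaged 14.7 ± 2.19 CPM (a gene's counts as a share of the library, scaled with TMM factors) in shAHCY_4 cells, 18.5 ± 4.54 in shAHCY_2 cells, 164.5 ± 8.08 in EV+4OHT cells and 113.8 ± 11.3 in EV cells (SD, n = 4 each). Both hairpin groups were therefore far below both EV groups, without overlap. The labelled cell type was checked against 9 fibroblast markers, all of which were measured. Their summed level was 4745 to 5377 CPM in shAHCY_4, 4863 to 5342 in shAHCY_2, 4784 to 4960 in EV+4OHT and 10662 to 12331 CPM in EV libraries. Of 4 lung fibroblast factors (TBX2, TBX4, TBX5 and FOXF1), 3 passed the low-count filter. TBX4 had at most 4 counts in any library and 0 in all shAHCY_4 libraries. Summed epithelial, endothelial and immune markers reached at most 3.81, 7.4 and 1.16 CPM in any library, and PECAM1, CDH5, SFTPC, SCGB1A1, KRT14 and CD3E had no counts in any. shAHCY_2 replicate 59 stood apart, since its difference from the 16-library mean of each gene fell with the GC content of the gene (Spearman's rho = -0.54 over 13250 genes, against -0.27 to 0.28 in the other 15 libraries).

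The promoters of 4 members are shown. Against EV+4OHT cells, SHMT1 was called with both hairpins, and PSAT1 and MTHFD2 with shAHCY_4 alone. MTHFD1L was the only member with a match of the composite C/EBP-ATF element. RefSeq windows on build GRCh38.p14 that run from 250 bases before to 50 bases after a start were at hand for 7 members, and PSPH, SHMT2 and ALDH1L2 had none. Capitals mark matches of the motifs searched on both strands, and positions count from the start site, with -1 the base before it.
SHMT1 (chr17:18363501-18363800, minus strand): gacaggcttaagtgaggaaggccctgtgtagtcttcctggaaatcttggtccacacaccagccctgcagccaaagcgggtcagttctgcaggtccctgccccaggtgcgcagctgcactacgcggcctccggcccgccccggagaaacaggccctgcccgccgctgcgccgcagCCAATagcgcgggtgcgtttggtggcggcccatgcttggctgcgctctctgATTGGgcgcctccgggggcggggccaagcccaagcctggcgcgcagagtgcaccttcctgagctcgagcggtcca
PSAT1 (chr9:78296875-78297174, plus strand): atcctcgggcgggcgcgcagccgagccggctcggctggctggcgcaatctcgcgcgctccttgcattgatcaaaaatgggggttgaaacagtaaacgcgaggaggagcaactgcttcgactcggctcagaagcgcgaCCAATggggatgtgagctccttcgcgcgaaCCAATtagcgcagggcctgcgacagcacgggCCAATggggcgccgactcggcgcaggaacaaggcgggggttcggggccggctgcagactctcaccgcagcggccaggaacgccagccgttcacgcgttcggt
MTHFD2 (chr2:74198365-74198664, plus strand): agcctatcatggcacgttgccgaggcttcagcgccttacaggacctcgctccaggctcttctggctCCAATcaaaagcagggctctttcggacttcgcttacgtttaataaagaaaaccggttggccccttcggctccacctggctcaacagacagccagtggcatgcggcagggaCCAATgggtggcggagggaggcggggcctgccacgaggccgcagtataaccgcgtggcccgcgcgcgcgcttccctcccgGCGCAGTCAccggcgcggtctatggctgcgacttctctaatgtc
MTHFD1L (chr6:150866236-150866535, plus strand): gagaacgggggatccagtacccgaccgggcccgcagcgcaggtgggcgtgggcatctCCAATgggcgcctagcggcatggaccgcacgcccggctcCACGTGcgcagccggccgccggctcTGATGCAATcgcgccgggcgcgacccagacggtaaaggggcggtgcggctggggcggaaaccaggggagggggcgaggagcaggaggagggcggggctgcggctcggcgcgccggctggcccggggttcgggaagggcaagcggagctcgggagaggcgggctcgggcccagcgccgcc
The motifs were TGATGCAAT, TTGCATCA and TGATGNAAN for C/EBP-ATF factors, TGACGTCA for CREB and ATF factors, CACGTG (the E-box that MYC and others bind), TTTCGCGC, TTTGGCGC and TTTCCCGC for E2F factors, TGACNNNGC (the core of the antioxidant response element) and CCAAT, which was added after the sequences had been seen. The 3 C/EBP-ATF forms overlap each other. CCAAT stood at -113, -83 and -52 in the PSAT1 window, at -184 and -74 in the MTHFD2 window, and at -76 and, on the minus strand, at -25 in the SHMT1 window, and 34.6% of all 34794 windows hold it. The MTHFD1L window shown had CCAAT at -193, CACGTG at -154, which 7.21% of windows hold, and TGATGCAAT at -129, which 0.239% hold. Counted from the starts of its other overlapping windows, TGATGCAAT lay at -90 and 25, and CACGTG at -115 and -1. The MTHFD2 window had TGACNNNGC on the minus strand at 7, a motif held by 13.3% of windows. TGACGTCA (1.84% of windows) and the E2F motifs (0.506%, 0.652% and 1.63%) matched none of the 11 windows of the 7 members, and TTGCATCA (0.871%) and TGATGNAAN (3.63%) matched only at the MTHFD1L element, which lies in 3 overlapping windows of that gene. In the windows not shown, CCAAT matched for PHGDH (-71) and for MTHFD1 (-216 and, on the minus strand, 36). CACGTG matched in the MTHFD1 window (-15) and TGACNNNGC in a MTHFD2L window (23). A match is a string of letters and was not tested as a binding site.

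SHMT2 and PSAT1 RNA stood highest of the 10 genes in every group when CPM was divided by the summed length of a gene's exons. SHMT2 averaged 40.0 ± 2.19 CPM per kb in shAHCY_4, 38.1 ± 3.87 in shAHCY_2, 38.6 ± 2.15 in EV+4OHT and 23.8 ± 2.04 in EV cells. PSAT1 averaged 29.9 ± 3.19 CPM per kb in shAHCY_4, 42.0 ± 2.74 in shAHCY_2, 37.6 ± 1.07 in EV+4OHT and 41.9 ± 2.45 in EV cells. The libraries of these genes overlapped in shAHCY_2 and EV+4OHT cells, while SHMT2 stood above PSAT1 in every shAHCY_4 library and below it in every EV library. MTHFD2 came next in each group, between 15.9 and 19.9 CPM per kb in the groups with 4OHT and at 14.3 in EV cells, where it overlapped PSPH, as it did in shAHCY_2 cells. PSPH and MTHFD1 followed at 10.7 to 15.0 CPM per kb, overlapping each other in all groups except EV+4OHT. PHGDH was sixth throughout, at 4.65 to 6.72 CPM per kb, above a bottom group of MTHFD1L, ALDH1L2, MTHFD2L and SHMT1, none of which averaged more than 2.81. SHMT1 was lowest in all 3 groups with 4OHT, apart from the rest in EV+4OHT cells and overlapping its neighbour in both hairpin groups, and MTHFD2L, at 0.999 ± 0.197 CPM per kb, was lowest in EV cells. The choice of length matters for this order: with the longest transcript PHGDH came to 19.5 CPM per kb in EV cells, behind PSAT1 and SHMT2 only, ALDH1L2 was lowest in all 4 groups, and SHMT2 alone led in shAHCY_2 and EV+4OHT cells.

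**Figure D1:**
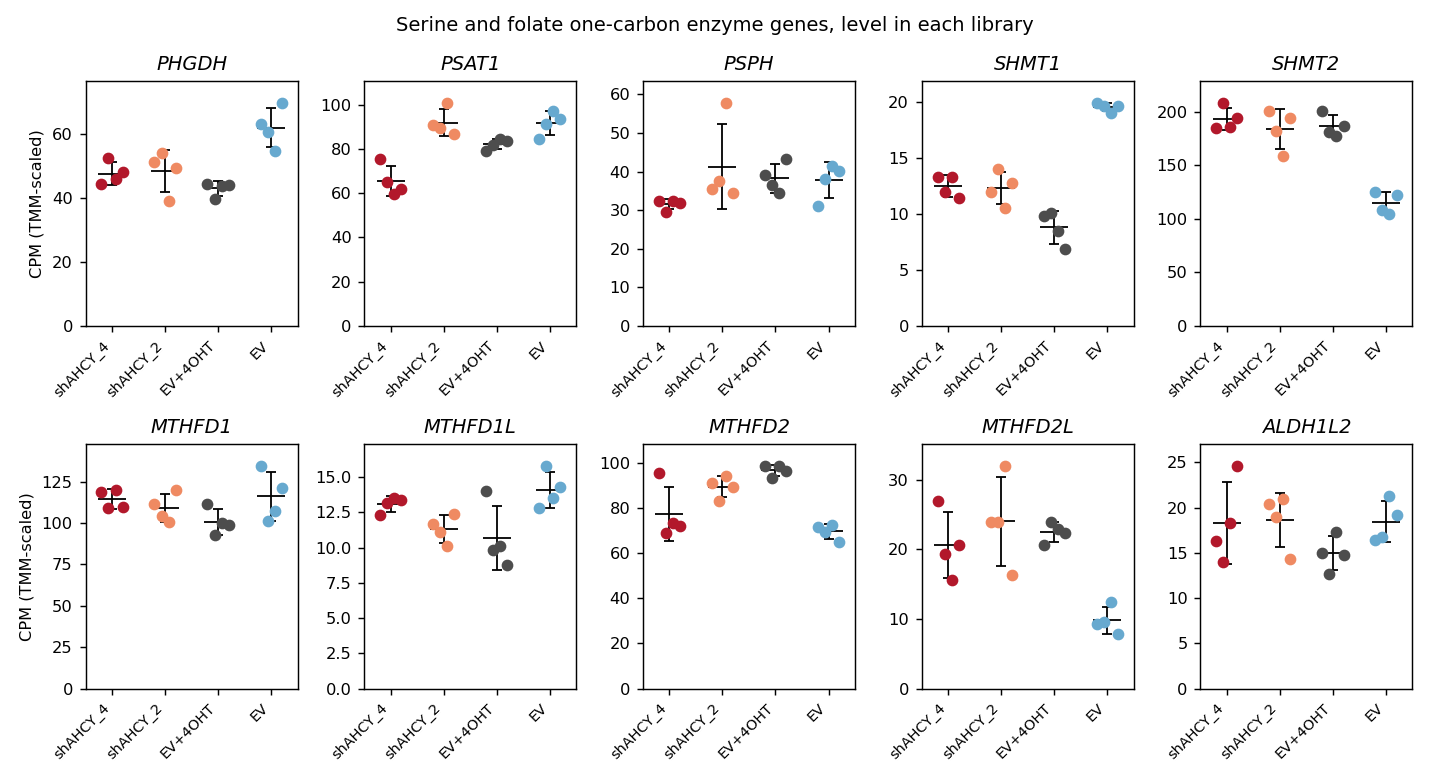
Level of each of the 10 genes in the 16 libraries, in CPM scaled with TMM factors on axes that start at 0, with 1 point per library and a bar and whiskers for the group mean and SD (n = 4). SHMT1 was lowest in EV+4OHT (6.84 to 10.1 CPM), between in both hairpin groups (10.5 to 14.0) and highest in EV (19.0 to 19.9), while the shAHCY_4 libraries had the lowest PSAT1 levels (59.5 to 75.4).

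RAS activation in EV cells split the 10 genes. Against EV cells, 3 of 10 were higher in EV+4OHT cells (SHMT2, MTHFD2 and MTHFD2L), 3 were lower (PHGDH, SHMT1 and MTHFD1L), and 4 did not pass the test (PSAT1, PSPH, MTHFD1 and ALDH1L2). Calls are edgeR quasi-likelihood tests with Benjamini-Hochberg adjustment over all 13526 genes at an adjusted p of 0.05. In this comparison 53.5% of all genes tested were called, 26.7% higher and 26.8% lower, and 6 of 10 is near that background. The median log2 fold change was -0.18 for the 10 genes and -0.02 for all genes. Scaled by library totals alone, all genes had a median of -0.13, and 38.2% of calls were higher (49.9% with TMM factors). The summed fibroblast markers, given above, were also lower in EV+4OHT than in EV libraries, and their part in these differences was not tested. The markers differed unevenly: COL1A1 averaged 1170 CPM in EV+4OHT and 3770 CPM in EV cells, while VIM averaged 2010 and 2021 CPM. All libraries are labelled as the same cultured line, and bulk RNA cannot tell lower levels in every cell from lower levels in some cells.

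The paired serine hydroxymethyltransferases moved in opposite directions with RAS activation. SHMT2, the mitochondrial form, had 201.1, 181.0, 177.5 and 186.8 CPM in EV+4OHT libraries, against 124.9, 108.8, 105.0 and 122.3 CPM in EV libraries. Every EV+4OHT library was above every EV library, with a log2 fold change of 0.70 ± 0.08 (SE; adjusted p = 2.6e-07). SHMT1, the cytosolic form, had 9.81, 10.1, 8.44 and 6.84 CPM in EV+4OHT libraries, against 19.9, 19.7, 19.0 and 19.7 CPM in EV libraries. Here every EV+4OHT library lay below the tight EV group, at 0.448 times its level (log2 fold change -1.16 ± 0.13, adjusted p = 6.9e-08). The ratio of SHMT2 to SHMT1 CPM within a library, given without a test or length correction, was 20.5, 18.0, 21.0 and 27.3 in EV+4OHT and 6.27, 5.53, 5.51 and 6.20 in EV libraries.

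Both mitochondrial methylenetetrahydrofolate dehydrogenases rose. MTHFD2 had 98.5, 93.4, 98.7 and 96.3 CPM in EV+4OHT libraries, against 71.6, 69.5, 72.6 and 65.2 CPM in EV libraries, a log2 fold change of 0.47 ± 0.09 (adjusted p = 1e-04). MTHFD2L, its less abundant relative, had 20.6, 24.0, 23.0 and 22.4 CPM in EV+4OHT libraries, against 9.33, 9.56, 12.5 and 7.87 CPM in EV libraries. The groups did not overlap for either gene, and MTHFD2L was 2.29 times as high (log2 fold change 1.19 ± 0.18, adjusted p = 7e-06), the widest difference of the 3 higher members. MTHFD1L, which acts after them and yields formate, averaged 10.7 ± 2.31 CPM in EV+4OHT and 14.1 ± 1.31 CPM in EV libraries. It was called lower (log2 fold change -0.40 ± 0.13, adjusted p = 0.014) although EV+4OHT replicate 53, at 14.0 CPM, lay within the EV range of 12.8 to 15.8. Without EV+4OHT replicate 56, its lowest library at 8.8 CPM, the MTHFD1L call was lost (-0.32, adjusted p = 0.066), as it was without a low-count filter (-0.38, adjusted p = 0.052).

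Of the genes that make serine, PHGDH alone passed the test. PHGDH had 44.2, 39.6, 43.7 and 44.1 CPM in EV+4OHT libraries, against 54.6 to 69.5 CPM in EV libraries. The groups were separate and the log2 fold change was -0.53 ± 0.10 (adjusted p = 1e-04). PSAT1 averaged 82.4 ± 2.35 CPM in EV+4OHT and 91.8 ± 5.36 CPM in EV libraries (log2 fold change -0.16 ± 0.08, adjusted p = 0.11), and its libraries did not overlap, with 84.5 the highest in EV+4OHT and 84.7 the lowest in EV. PSPH, the phosphatase that releases serine, differed by 0.02 on the log2 scale with a 95% interval of -0.25 to 0.30. MTHFD1, which holds the cytosolic activities, averaged 100.7 ± 7.84 CPM in EV+4OHT and 116.0 ± 14.9 CPM in EV libraries, a log2 fold change of -0.20 ± 0.09 (adjusted p = 0.06). ALDH1L2 averaged 14.9 ± 1.86 CPM in EV+4OHT and 18.4 ± 2.28 CPM in EV libraries (log2 fold change -0.30 ± 0.16, adjusted p = 0.11). PSAT1, MTHFD1 and ALDH1L2 were called lower with library totals alone (-0.27 for PSAT1, -0.32 for MTHFD1 and -0.41 for ALDH1L2), and PSAT1 and MTHFD1 also with upper-quartile factors (-0.20 for PSAT1 and -0.24 for MTHFD1). MTHFD1 was also called with each library's GC trend removed (-0.26) and without EV replicate 50 (-0.28), EV replicate 51 (-0.24) or EV+4OHT replicate 53 (-0.25). PSAT1 was also called without EV replicate 49 (-0.23), and ALDH1L2 when only the groups compared were fitted (-0.32).

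**Figure D2:**
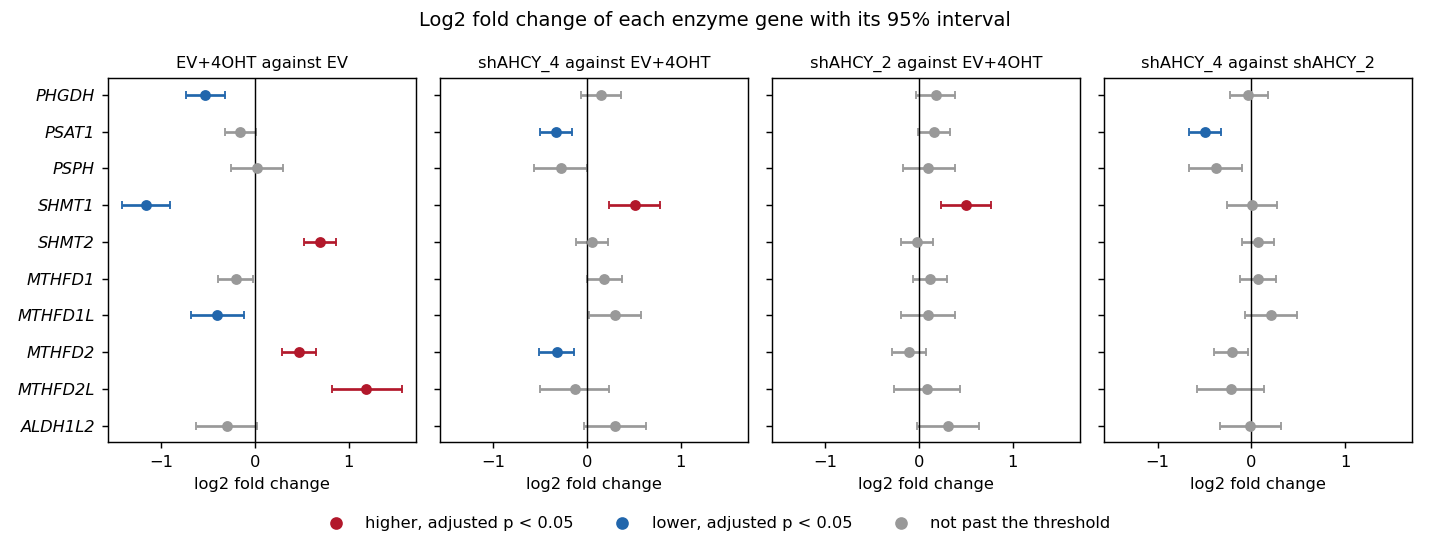
Log2 fold change of each gene (points) with its 95% interval from the edgeR quasi-likelihood fit (bars) in 4 comparisons, red for higher, blue for lower and grey for not past the threshold. The left panel has 3 red and 3 blue genes, SHMT1 is red with both hairpins (0.51 and 0.50), and PSAT1 is blue with shAHCY_4 (-0.33) and in the comparison of the hairpins (-0.49).

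Knockdown of AHCY in RAS-activated cells left most of the 10 genes without a call, and SHMT1 was called higher with both hairpins. The hairpin comparisons share the EV+4OHT libraries, so their values are set side by side and are not independent. In edgeR, 1 of 10 was higher with shAHCY_4 (SHMT1) and 2 were lower (PSAT1 and MTHFD2), against 14.4% of all genes called, 7.58% higher and 6.86% lower. With shAHCY_2, 1 of 10 was higher (SHMT1), and none was lower in edgeR, with or without adjustment of p, in DESeq2 or in limma-voom, against 6.98% of all genes called, 3.91% higher and 3.07% lower. The median log2 fold change of the 10 genes was 0.10 with shAHCY_4 and 0.11 with shAHCY_2, and that of all genes was 0.01 in both. With library totals alone the higher share of calls was 67.4% with shAHCY_4 (52.5% with TMM factors) and 69.8% with shAHCY_2 (56% with TMM factors), with the same members called.

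SHMT1 had 13.3, 12.0, 13.3 and 11.4 CPM in shAHCY_4 libraries and 12.0, 14.0, 10.5 and 12.8 CPM in shAHCY_2 libraries, against the 9.81, 10.1, 8.44 and 6.84 CPM of EV+4OHT libraries given above. Neither hairpin group overlapped EV+4OHT, though the lowest shAHCY_2 library was only just above the highest EV+4OHT library. The log2 fold change was 0.51 ± 0.13 with shAHCY_4 (adjusted p = 0.011) and 0.50 ± 0.13 with shAHCY_2 (adjusted p = 0.021). Both calls leaned on EV+4OHT replicate 56: without it the values were 0.40 in each (adjusted p = 0.053 with shAHCY_4 and 0.083 with shAHCY_2). The shAHCY_2 call was also lost without EV+4OHT replicate 55 (0.48, adjusted p = 0.062), without shAHCY_2 replicate 58 (0.43, adjusted p = 0.081) and when only the groups compared were fitted (0.50, adjusted p = 0.066). MKI67, a proliferation marker, moved in the same libraries, averaging 6.50 CPM in shAHCY_4, 4.85 in shAHCY_2 and 1.35 in EV+4OHT cells, and its part in the SHMT1 difference was not tested. SHMT1 stayed below the EV cells in both hairpin groups, as described below.

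PSAT1, the aminotransferase that feeds PSPH, separated the hairpins. It had 75.4, 65.0, 59.5 and 62.1 CPM in shAHCY_4 libraries and 90.8, 89.5, 100.7 and 86.9 CPM in shAHCY_2 libraries, against 79.2, 81.9, 84.5 and 83.8 CPM in EV+4OHT libraries. All shAHCY_4 libraries lay below and all shAHCY_2 libraries above the EV+4OHT range. The log2 fold change was -0.33 ± 0.08 with shAHCY_4 (adjusted p = 0.0077), a call kept in every alternative run, with an adjusted p between 0.00038 and 0.04. With shAHCY_2 it was 0.16 ± 0.08 and did not pass (adjusted p = 0.26). Tested directly, PSAT1 was lower in shAHCY_4 than in shAHCY_2 cells by a log2 fold change of -0.49 ± 0.08 (adjusted p = 0.002, between 9e-07 and 0.025 over the alternatives). It was the 1 of 10 genes called in that comparison by edgeR, DESeq2 and limma-voom, with none called higher by any of them or by edgeR at an unadjusted p of 0.05, and 1.24% of all genes were called, 0.54% higher and 0.702% lower. Without a low-count filter the higher share of calls between the hairpins fell to 22.2%, against 43.5% with the filter.

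MTHFD2 followed with shAHCY_4 less evenly. It had 95.4, 69.1, 73.5 and 72.0 CPM in shAHCY_4 libraries and 91.3, 83.2, 94.4 and 89.3 CPM in shAHCY_2 libraries, against 98.5, 93.4, 98.7 and 96.3 CPM in EV+4OHT libraries. Replicate 61 of shAHCY_4, the shallowest library, lay within the EV+4OHT range and the other 3 well below it. The log2 fold change with shAHCY_4 was -0.32 ± 0.09 (adjusted p = 0.016), and it was -0.43 without replicate 61. The call was lost without replicate 62 (-0.28, adjusted p = 0.065), 63 (-0.31, adjusted p = 0.05, just over the threshold) or 64 (-0.28, adjusted p = 0.068). With shAHCY_2 the MTHFD2 value was -0.11 ± 0.09 (adjusted p = 0.49). The difference between the hairpins was -0.21 ± 0.09 and did not pass (adjusted p = 0.21), but it did without shAHCY_4 replicate 61 (-0.32, adjusted p = 0.047).

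PSPH had 32.3, 29.6, 32.4 and 31.8 CPM in shAHCY_4 libraries and 35.6, 37.5, 57.7 and 34.4 CPM in shAHCY_2 libraries, against 39.0, 36.5, 34.5 and 43.2 CPM in EV+4OHT libraries. Every shAHCY_4 library lay below the lowest of both other groups, and the 57.7 CPM came from shAHCY_2 replicate 59, the library with the GC trend. The log2 fold change with shAHCY_4 was -0.28 ± 0.14 (adjusted p = 0.18), which passed when only the groups compared were fitted (-0.29, adjusted p = 0.019). Between the hairpins it was -0.38 ± 0.14 (adjusted p = 0.15), which passed without a low-count filter (-0.39, adjusted p = 0.04). With a library left out, that difference ran from -0.45 to -0.19. The PSPH value of shAHCY_2 against EV+4OHT, 0.10 in the main fit, then ran from -0.10 to 0.18. PHGDH, at the head of the same branch, did not pass with either hairpin, at 0.15 ± 0.10 with shAHCY_4 and 0.18 ± 0.10 with shAHCY_2.

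SHMT2 did not pass the test with either hairpin. It had 185.1, 208.2, 186.4 and 194.2 CPM in shAHCY_4 libraries and 200.7, 182.6, 158.5 and 194.9 CPM in shAHCY_2 libraries, and the 95% intervals of its log2 fold change against EV+4OHT were -0.12 to 0.22 with shAHCY_4 and -0.19 to 0.15 with shAHCY_2. MTHFD2L was spread more widely within the hairpin groups, from 15.6 to 27.0 CPM in shAHCY_4 and from 16.3 to 32.0 CPM in shAHCY_2 libraries, against 20.6 to 24.0 CPM in EV+4OHT libraries. The 32.0 CPM came from shAHCY_2 replicate 59, the library with the GC trend, and the part of that trend in it was not tested. MTHFD2L intervals of -0.50 to 0.23 with shAHCY_4 and -0.27 to 0.44 with shAHCY_2 leave room for sizeable changes either way. MTHFD1, MTHFD1L and ALDH1L2 had log2 fold changes of 0.18, 0.30 and 0.30 with shAHCY_4 and of 0.12, 0.09 and 0.31 with shAHCY_2, none past the threshold. MTHFD1L was called higher with shAHCY_4 once EV+4OHT replicate 53 was left out (0.45, adjusted p = 0.026).

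Both hairpin groups were also compared with EV cells. These comparisons share the EV libraries with each other and with the comparison of EV+4OHT and EV cells. In shAHCY_4 cells 2 of 10 genes were higher than in EV cells (SHMT2 and MTHFD2L) and 3 lower (PHGDH, PSAT1 and SHMT1), with 51.2% of all genes called, 25.4% higher and 25.8% lower. In shAHCY_2 cells 3 were higher (SHMT2, MTHFD2 and MTHFD2L) and 2 lower (PHGDH and SHMT1), with 48.1% of all genes called, 24.5% higher and 23.6% lower. SHMT1 differed from EV cells by -0.65 ± 0.12 on the log2 scale in shAHCY_4 cells, -0.66 ± 0.12 in shAHCY_2 cells and -1.16 ± 0.13 in EV+4OHT cells. MTHFD2 was at 111.1% of its EV mean in shAHCY_4, 128.4% in shAHCY_2 and 138.7% in EV+4OHT cells, and its difference between shAHCY_4 and EV cells did not pass (0.15 ± 0.09, adjusted p = 0.17), though it did with each library's GC trend removed (0.20, adjusted p = 0.025). PSAT1 was at 71.4% of its EV mean in shAHCY_4 cells, with a log2 fold change of -0.49 ± 0.08 (adjusted p = 2.8e-05), and at 100.2% in shAHCY_2 cells (log2 fold change 0.00 ± 0.08). PHGDH was lower in shAHCY_4 (-0.38 ± 0.10, adjusted p = 0.0028) and in shAHCY_2 (-0.35 ± 0.10, adjusted p = 0.0052) than in EV cells, against -0.53 for EV+4OHT.

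Ratios of paired enzymes within a library need no scaling between libraries, and are given as a description. The ratio of SHMT2 to SHMT1 CPM averaged 15.6 ± 1.84 in shAHCY_4, 15.0 ± 1.51 in shAHCY_2, 21.7 ± 3.95 in EV+4OHT and 5.88 ± 0.413 in EV cells. Both hairpin groups thus lay between the EV groups, below every EV+4OHT library (lowest 18.0) and above every EV library (highest 6.27). The ratio of MTHFD2, which oxidises the carbon unit in mitochondria, to cytosolic MTHFD1 averaged 0.676 ± 0.0862 in shAHCY_4, 0.825 ± 0.083 in shAHCY_2, 0.963 ± 0.0546 in EV+4OHT and 0.609 ± 0.0851 in EV cells. In shAHCY_4 it overlapped the EV range of 0.533 to 0.687, with 0.802 in replicate 61 above it. The ratio of MTHFD2L to MTHFD2 averaged 0.266 in shAHCY_4, 0.268 in shAHCY_2, 0.233 in EV+4OHT and 0.14 in EV cells, so MTHFD2L made up more of the pair in every library with 4OHT (0.183 or more, against at most 0.172 in EV). The ratio of MTHFD1L to MTHFD1 stayed between 0.0891 and 0.157 in all 16 libraries, and its 4 groups overlapped.

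**Figure D3:**
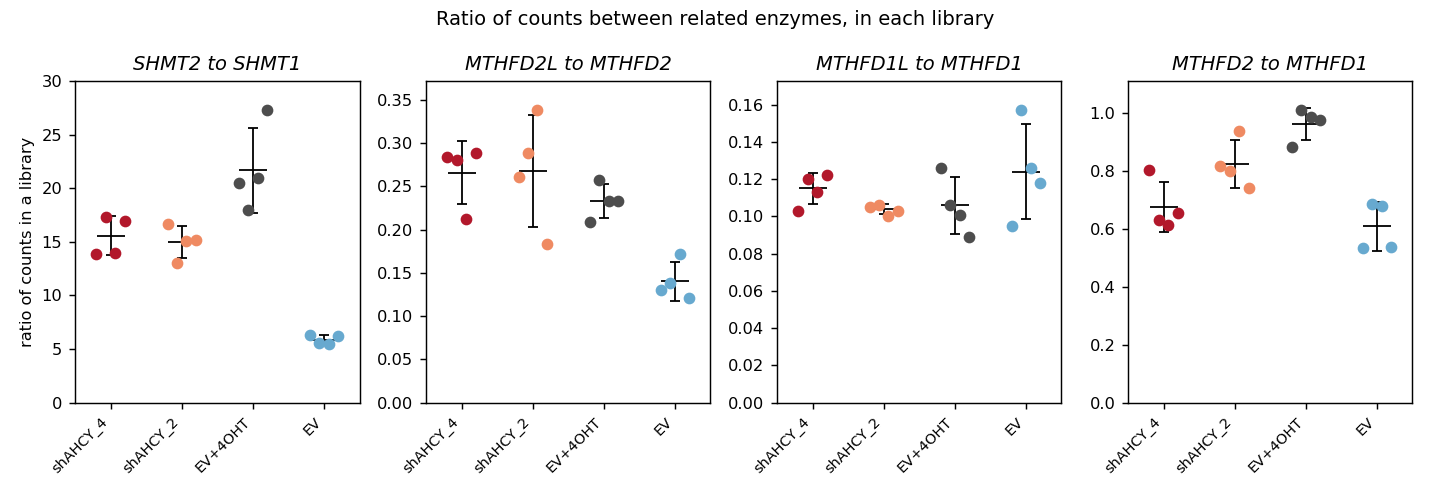
Ratio of CPM of paired enzymes in each library (points) with the group mean and SD (bar and whiskers, n = 4), on axes that start at 0. The SHMT2 to SHMT1 ratio is lowest in EV (5.51 to 6.27), highest in EV+4OHT (18.0 to 27.3) and between in both hairpin groups (13.0 to 17.3).

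Genes around the 10 enzymes give the setting. Counts in these lists are edgeR calls, to be read against the shares of all genes called, which were 26.7% higher and 26.8% lower in EV+4OHT against EV cells, 7.58% higher and 6.86% lower with shAHCY_4, and 3.91% higher and 3.07% lower with shAHCY_2. Of the 17 tested folate partners, 5 were higher and 5 lower in EV+4OHT than in EV cells, which is near that background. TYMS, the enzyme of thymidylate synthesis, which uses the product of SHMT1, averaged 11.8 CPM in EV+4OHT and 72.5 CPM in EV cells (log2 fold change -2.62 ± 0.10). Against EV+4OHT cells it was higher in edgeR by 0.32 with shAHCY_4 (adjusted p = 0.046) and 0.72 with shAHCY_2 (adjusted p = 8.9e-05). With shAHCY_4, 4 of 17 partners were higher (3 in limma-voom) and none lower, and with shAHCY_2, 2 were higher and none lower. None of the 17 was lower with either hairpin in edgeR at an unadjusted p of 0.05, in DESeq2 or in limma-voom.

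The purine pathway consumes formyl groups carried by folate. Of its 11 tested genes, 2 were higher and 2 lower in EV+4OHT than in EV cells, with PAICS at -0.54 ± 0.07 and PFAS at -0.60 ± 0.12. Against EV+4OHT, PAICS and PFAS were higher with shAHCY_4 (0.51 ± 0.07 and 0.81 ± 0.12) and with shAHCY_2 (0.40 ± 0.07 and 0.55 ± 0.12), with 3 of 11 called higher with shAHCY_4 and 2 with shAHCY_2. Of 4 glycine cleavage genes, GLDC, the decarboxylase, averaged 4.04 CPM in EV+4OHT and 0.755 CPM in EV cells (2.37 ± 0.27), and no other was called in EV+4OHT against EV cells. Of 7 tested serine and glycine carriers, 4 were higher in EV+4OHT than in EV cells and SLC38A2 was lower (617.7 CPM in EV+4OHT and 1329 CPM in EV cells, -1.11 ± 0.10). SLC38A5 was higher by 0.48 with shAHCY_4 and 0.39 with shAHCY_2 and was the 1 carrier called with the hairpins in edgeR, while with shAHCY_4 DESeq2 also called 2 carriers lower and limma-voom 1. Of 13 users of serine and glycine, 6 were higher and 4 lower in EV+4OHT than in EV cells, where 53.5% of all genes were called, and ALAS1, the start of haem synthesis, was among the higher (1.63 ± 0.10). With shAHCY_4, 2 were higher and CTH, which makes cysteine, was lower (-0.48 ± 0.15), and with shAHCY_2 none passed in edgeR, DESeq2 or limma-voom (0 higher and 3 lower at an unadjusted p of 0.05). A list of choline and dimethylglycine one-carbon donors had 3 tested genes. Of these, ALDH7A1 (-1.18 ± 0.08) and SARDH (-0.80 ± 0.25) were lower in EV+4OHT than in EV cells. ALDH7A1 was higher with shAHCY_4 (0.64 ± 0.08) and shAHCY_2 (0.41 ± 0.08) than in EV+4OHT cells.

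ATF4, a transcription factor of the amino-acid response whose known targets include PHGDH, PSAT1, SHMT2 and MTHFD2, averaged 72.6 CPM in shAHCY_4, 86.8 in shAHCY_2, 99.6 in EV+4OHT and 71.6 CPM in EV cells. It was higher in EV+4OHT than in EV cells (0.48 ± 0.08, adjusted p = 4.9e-05). Against EV+4OHT cells it was lower with shAHCY_4 (-0.46 ± 0.08, adjusted p = 0.00062), and with shAHCY_2 it did not pass (-0.20 ± 0.08, adjusted p = 0.17). The direct difference of ATF4 between shAHCY_4 and shAHCY_2 did not pass either (-0.26 ± 0.08, adjusted p = 0.12). Of 22 other known ATF4 targets, 14 were higher and 3 lower in EV+4OHT than in EV cells, against 26.7% of all genes higher and 26.8% lower. Their median log2 fold change was 0.47, against -0.02 for all genes, with TRIB3 (1.54 ± 0.09), SLC7A11 (1.64 ± 0.13) and SLC3A2 (1.25 ± 0.10) among the higher. With shAHCY_4, 4 were higher and 6 lower, SLC7A11 at -0.99 ± 0.13 and AARS1 at 0.40 ± 0.09, against 7.58% of all genes higher and 6.86% lower. With shAHCY_2, SLC7A11 alone passed in edgeR (-0.58 ± 0.13), while DESeq2 called 1 target higher and 2 lower, and limma-voom called 2 lower. Among the other regulators, MYC was higher in EV+4OHT than in EV cells (0.55 ± 0.09), E2F1 (-1.18 ± 0.25) and MKI67 (-4.02 ± 0.21) were lower, and NFE2L2 did not pass (0.21 ± 0.10). With the hairpins MYC, E2F1 and NFE2L2 did not pass, at 0.19, 0.50 and -0.21 with shAHCY_4 and -0.09, 0.03 and -0.10 with shAHCY_2, while MKI67 was higher by 2.23 ± 0.23 with shAHCY_4 and 1.84 ± 0.23 with shAHCY_2. All 5 lower glycolysis genes, which supply and drain the precursor of PHGDH, were higher in EV+4OHT than in EV cells, by 0.19 to 0.51, and GAPDH was lower with shAHCY_4 (-0.36 ± 0.07). Among 5 other sources of NADPH, IDH2 was lower in EV+4OHT than in EV cells (-1.89 ± 0.10) and higher with shAHCY_4 (0.40 ± 0.10) and shAHCY_2 (0.39 ± 0.10) than in EV+4OHT cells. Between the hairpins, CTH (-0.64 ± 0.15) and VLDLR (-0.94 ± 0.20) were the members of these lists that passed in edgeR, both lower in shAHCY_4. In that comparison DESeq2 called 1 folate partner lower and 1 ATF4 target higher and 2 lower.

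**Figure D4:**
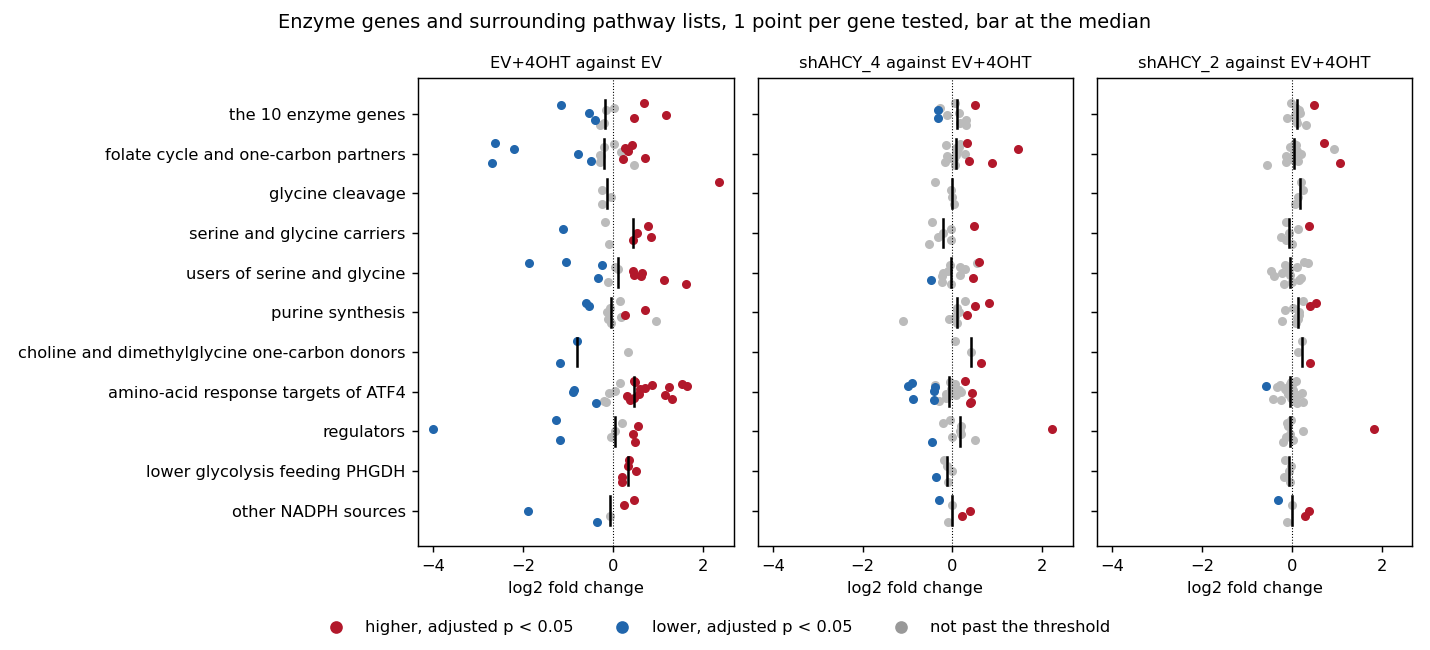
Log2 fold change of each tested gene in the 10 enzymes and the 10 surrounding lists (points; red higher, blue lower, grey not past the threshold), with a bar at each list's median, in 3 comparisons. The ATF4 targets have 14 red of 22 points in the left panel, and 4 red and 6 blue points with shAHCY_4.

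The genes whose log2 CPM followed each enzyme most closely over the 16 libraries were looked up among 8530 genes with a mean log2 CPM of at least 3. The libraries fall into 4 groups of 4 and share their depth with both genes of a pair, so Pearson's r is a description of these libraries. SHMT1 was closest to MCM2 (r = 0.98), PRC1 and PKMYT1 (0.97 each). SHMT2 was closest to CAP1 and ZPR1 (0.99 each) and HARS1 (0.98). PSAT1 was closest to VIM (0.94), NRAS and ASNS (0.89 each), and MTHFD2 to LACC1 (0.93), SLC38A1 and ANKRD46 (0.91 each). PHGDH was closest to H2AX, SEPTIN9 and VPS35L (0.94 each), MTHFD2L to ZNF468 (0.97), CNIH1 and POC1B (0.96 each), and PSPH to UNC50 (0.93), SUGT1 and DPM1 (0.91 each). MTHFD1, MTHFD1L and ALDH1L2 had no partner above 0.85, with RAPGEF1 (0.83), ARHGAP35 (0.85) and SLTM (0.81) the closest.

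Counting leaves some members less certain. Smart-Seq2 libraries do not mark strand. Reads in exon stretches that a gene shares with a gene on the other strand therefore cannot be told apart. The share of reads in such stretches was not measured, and the counts here are of whole genes. Overlapping partners are SMCR8 for SHMT1 (1382 counts over the 16 libraries, against 2982 for SHMT1) and C12orf45 for ALDH1L2 (4214 against 3851). Others are ZBTB25 (1018) and AL122035.1 (74) for MTHFD1, NDUFA4L2 for SHMT2 (151), AC093677.2 for MTHFD2L (39) and SLC4A5 for MTHFD2 (23). The copies PSPHP1, PSAT1P1, MTHFD2P1 and SHMT1P1 had 273, 30, 20 and 5 counts over all libraries, and how reads that fit both a gene and its copy were shared out is not given in the sources used here.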

How the data were processed

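Trizol and RNeasy extracts of total RNA were made into Smart-Seq2 libraries, per the labels' protocols, by a full-length cDNA method that does not mark strand. Per the submitters' processing notes, CASAVA 1.8.2, TopHat2 2.0.11 and featureCounts 1.18.0 were used, with hg19 (GRCh37), while the sources used here give neither the annotation nor the handling of shared reads. The authors deposited whole-number counts per gene, not normalized. Identifiers were paired with symbols for 50127 of 62069, and the other 11942 held 0.503% of counts.

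On these counts, edgeR 4.0.16 (R 4.3.3) kept 13526 genes (filterByExpr), computed TMM factors and fitted all 16 libraries with a mean per group. Two-sided quasi-likelihood tests were adjusted by Benjamini-Hochberg over all genes tested, with a threshold of 0.05, and an SE is the log2 fold change over the root of F. CPM uses TMM-scaled totals, and intervals cover the spread between libraries. Exon lengths and GC content come from GENCODE on another build than the counts, so no gene coordinates are given, and promoter windows come from RefSeq. The tests were also run on simulated data with known changes, and the outcome is not given here. The smallest change simulated was wider than those called for members with either hairpin. Alternatives were RLE and upper-quartile factors, library totals, DESeq2 1.42.0, limma-voom 3.58.1, other filters, a GC correction, fitting only the groups compared, and leaving out each library.

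Named in the text are AHCY, all 10 members, from each surrounding list up to 4 genes with the smallest adjusted p per comparison, the regulators ATF4, MYC, NFE2L2, E2F1 and MKI67, and for each member the 3 genes with the highest correlation. The members and lists were chosen with earlier results of these data known. Some genes of the surrounding lists are counted but not reported here by name.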

Additional observations from a re-analysis of the deposited data

Results flagged for a closer look

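Of 44 sets of 4 libraries (the 10 genes and AHCY in 4 groups), 4 had a library whose gap to its nearest neighbour passed Dixon's 95% critical value as a share of the group's range. Chance gives about 1 in 20 such sets.

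PSPH had 57.7 CPM in shAHCY_2 replicate 59, against 34.4 to 37.5 CPM in the other 3 shAHCY_2 libraries, a gap of 0.863 of the range. That library's deviation also fell with GC content (rho = -0.54), and the part of this in the PSPH value was not tested. MTHFD2 had 95.4 CPM in shAHCY_4 replicate 61, against 69.1 to 73.5 CPM in the other shAHCY_4 libraries (0.834 of the range). Replicate 61 was the shallowest library, with 8236199 counts. PHGDH had 39.6 CPM in EV+4OHT replicate 54, against 43.7 to 44.2 CPM in the other EV+4OHT libraries (0.89). AHCY had 18.0 CPM in shAHCY_4 replicate 63, against 13.4 to 14.0 CPM in the other shAHCY_4 libraries (0.862).

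The effect on PSAT1 differed between the hairpins, which share the EV+4OHT libraries: shAHCY_4 minus shAHCY_2 was -0.49 ± 0.08 on the log2 scale (edgeR quasi-likelihood test, adjusted p = 0.002), with every shAHCY_4 library (59.5 to 75.4 CPM) below every shAHCY_2 library (86.9 to 100.7 CPM).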

How the results depend on the processing

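No paired analysis was possible because replicate numbers are not shared between groups. The number of the 10 genes lower in EV+4OHT than in EV cells was 3. It was 2 without a low-count filter, 5 with upper-quartile factors and 6 with library totals. It was 4 with GC trends removed and when only the groups compared were fitted, and 2 to 4 with a library left out. The number lower with shAHCY_4 was 2, but 3 when only the groups compared were fitted. The number higher with shAHCY_2 was 1, but 0 when only the groups compared were fitted, and the number lower in shAHCY_4 than in shAHCY_2 was 1, but 2 without a low-count filter. Leaving out 1 library at a time gave 0 to 1 higher with shAHCY_2, 0 to 2 higher and 1 to 2 lower with shAHCY_4, and 1 to 2 lower in shAHCY_4 than in shAHCY_2. Over the 6 comparisons, single genes gave 524 values with the same direction and call, 14 with a call gained and 2 with a call lost under other settings, and 463, 9 and 8 with libraries left out. No called value changed sign. Values that were not called could change sign and were counted as the same. Among all genes, 1953 were called with shAHCY_4, but 3136 when only the groups compared were fitted. Between the hairpins 168 were called, but 78 when only those groups were fitted, 481 in DESeq2, 553 without a filter, 610 with GC trends removed and 69 to 155 with a library left out. For calls lost with other settings the cause was not tested. Counts as low as 91 (SHMT1) limit the precision of the least abundant genes.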
